A study of Mus musculus with 35 samples.

Results

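NUP98-JARID1A is a fusion of the nucleoporin NUP98 with JARID1A, the histone demethylase also called KDM5A. The comparison described here asked what leukemic mouse bone marrow cells expressed after this fusion had been switched off for 5 days. It set the 3 libraries of doxycycline-treated mice (day 5) against the 4 libraries of untreated mice in the same model, 7 samples of 35 in the series, and used all genes of the deposited table of normalized counts. All mice were C57BL/6 and had been transplanted, per the labels, with cells that carry regulatable expression of NUP98/JARID1A. Treated mice received doxycycline at 4 mg/ml for 5 days, and untreated mice received none. Of the 4 untreated libraries, 3 are titled day 5 and 1 is titled day 3, and the rule of the comparison takes all 4 as 1 group. RNA came from bone marrow cells sorted as GFP/CD45.2+, and libraries were stranded and made from poly-A RNA. The same labels describe 3 libraries at day 3 of doxycycline in this model, libraries of NUP98-DDX10 and NUP98-NSD1 mice under the same treatment, and control libraries, which here only shared the estimate of the spread. Each p-value and SE rests on 1 spread per gene, shared by the 10 groups of all 33 RNA libraries, and not on the 7 libraries alone. The labels do not say whether libraries of a group came from separate mice. That spread is therefore one between libraries, which may be technical in part.

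As background, NUP98 fusions found in acute myeloid leukemia join the phase-separating FG repeats of NUP98 to a partner that often reads or writes histone marks. JARID1A contributes a PHD finger that binds methylated lysine 4 of histone H3, a mark of active promoters. Such fusions are known for holding Hoxa cluster genes, and cofactors such as Meis1, at the high level of stem and progenitor cells, and CDK6 is the kinase named in the title of the study. In a tet-regulated leukemia, switching the fusion off can be read out as loss of the progenitor program and gain of genes of maturing neutrophils and monocytes.

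Depth was 18771269 to 28912315 reads in genes in the day 5 libraries and 14854613 to 17290010 in the untreated ones. Summed normalized counts were 17576052 to 20911455 at day 5 and 15017266 to 16406073 in the untreated libraries, without overlap (exact permutation test over libraries, 2-sided, p = 0.0571, the smallest that 3 against 4 libraries can give). A pair of libraries stood apart. The untreated library titled day 3 had the lowest summed level of monocyte genes and of immediate early genes in its group, and day 5 replicate 1 was the deepest library and had the lowest summed level of neutrophil genes. Values for each are given beside the results they touch. All 10 genes of the hematopoietic identity list were detected, with summed normalized counts of 211400 to 255590 in untreated and 249310 to 364000 in day 5 libraries, and 5 of the 10 were higher at day 5. Among them Ptprc, which encodes CD45, read 6696, 6786, 5182 and 5984 in untreated libraries (the one titled day 3 first, then replicates 1 to 3, the order used throughout) and 13234, 9953 and 9572 at day 5 (replicates 1 to 3), a log2 difference of 0.82 ± 0.12 (SE; adjusted p = 2.2e-06). In bulk RNA, fewer cells of a type and less RNA per cell cannot be told apart.

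The transcript of the fusion itself was the first check. Reads assigned to the NUP98-JARID1A construct were 3489, 3273, 3042 and 3096 normalized counts in untreated libraries. They were 100.3, 95.4 and 60.2 at day 5, or 2.65% of the untreated mean. The eGFP reporter read 9450, 12330, 12320 and 12506 in untreated libraries and 324, 340 and 305 at day 5, or 2.77% of the untreated mean. The labels describe a sort on GFP at every time, and how its gate was set is not given in the sources used here. Both falls passed the test (log2 difference -5.26 ± 0.49, adjusted p = 2.1e-09, for the fusion, and -5.16 ± 0.54, adjusted p = 1.5e-08, for eGFP). Both were already at this level at day 3, with 90.0 to 99.8 for the fusion and 294 to 400 for eGFP, and a further fall from day 3 to day 5 was not detectable (log2 difference -0.21, adjusted p = 0.83, for the fusion). The other reporter, luciferase, read 2628, 3845, 4025 and 4148 in untreated libraries and 4708, 5095 and 6070 at day 5, without overlap, but did not pass the test (log2 difference 0.55 ± 0.68, adjusted p = 0.55). It passed when the 10 NUP98-JARID1A libraries were fitted alone and when the control libraries were left out.

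**Figure D1:**
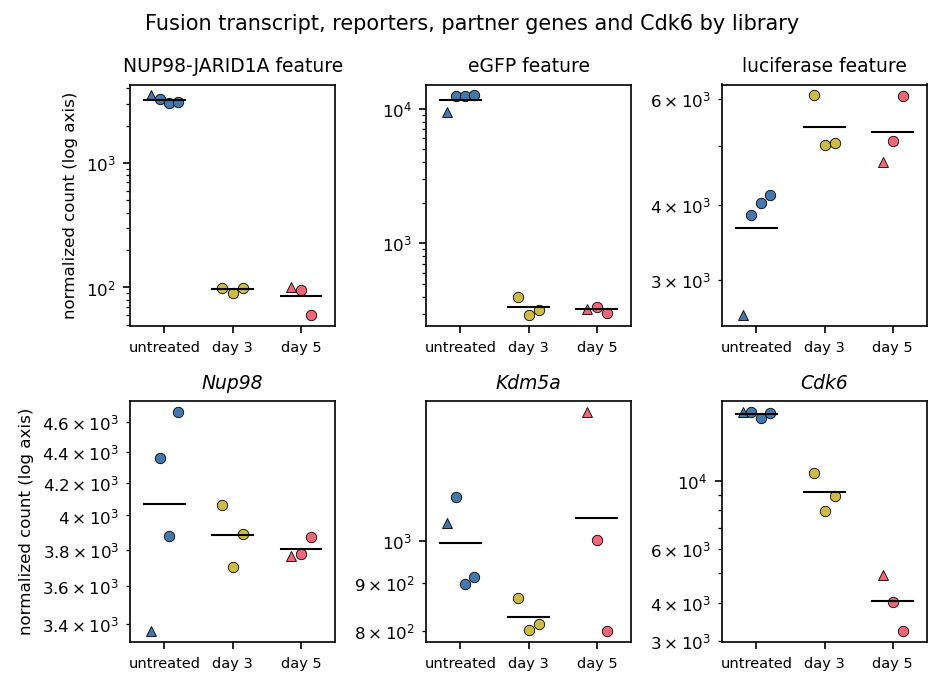
Normalized counts (log axis) of the fusion construct, both reporters, the endogenous partner genes and Cdk6 in untreated, day 3 and day 5 libraries of the NUP98-JARID1A model. Points are libraries, bars are group means, and triangles mark the untreated library titled day 3 and day 5 replicate 1; the fusion and eGFP are similarly low at day 3 and day 5 while Cdk6 is lower at day 5 than at day 3.

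The endogenous partner genes did not follow. Nup98 (chromosome 7, 102119400 to 102210166, GRCm38) read 3364, 4361, 3879 and 4668 untreated and 3764, 3777 and 3874 at day 5 (log2 difference -0.09 ± 0.11, adjusted p = 0.57). Kdm5a, the mouse JARID1A gene (chromosome 6, 120364099 to 120444574), read 1046, 1116, 899 and 914 untreated and 1377, 1003 and 799 at day 5 (0.06 ± 0.13, adjusted p = 0.74). In both genes the groups overlapped.

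Across the transcriptome, 12687 features (12682 genes and 5 constructs) had a normalized count of at least 10 in at least 3 libraries and were tested. At an adjusted p under 0.05, 2552 (20.1%) were higher and 2686 (21.2%) were lower at day 5, and 1048 of the higher and 907 of the lower ones differed by at least 2-fold. These shares, near 1 in 5 features in each direction (5238 in all), are the background against which the gene lists below are read. The median log2 difference of all features tested was -0.0155. Under quantile scaling, 2130 were higher and 2711 lower. Every day 5 library lay above every untreated library in 2444 features (19.3%) and below every one in 2338 (18.4%).

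Among genes whose mean over the 7 libraries was above the median of all features (365.6) and whose groups did not overlap, the 15 largest falls and the 15 largest rises are described first. These falls included 3 genes of transcriptional regulators, Mn1, Foxf1 and Nkx2-3. Mn1 (chromosome 5, 111417300 to 111457030), a transcriptional coregulator and a human leukemia gene, had 841, 761, 1120 and 1405 normalized counts untreated and 12.2, 5.02 and 11.1 at day 5. Foxf1 (chromosome 8, 121084386 to 121088154), a forkhead factor best known from mesenchyme, had 2570, 2157, 2896 and 2555 untreated and 39.5, 19.1 and 37.9 at day 5. Nkx2-3 (chromosome 19, 43612325 to 43615892), a homeobox factor, had 1000, 903, 1190 and 1068 untreated and 38.3, 22.1 and 36.8 at day 5. In these 3 genes no day 5 library came near an untreated one, and the day 3 libraries lay between them, at 82.6 to 139 for Mn1, 224 to 320 for Foxf1 and 213 to 264 for Nkx2-3. The log2 differences were -6.67 ± 0.56 (adjusted p = 3.1e-10) for Mn1, -6.32 ± 0.40 (2.6e-12) for Foxf1 and -4.99 ± 0.32 (2.6e-12) for Nkx2-3, where the scale, log2(normalized count + 1), understates the change of low values.

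**Figure D2:**
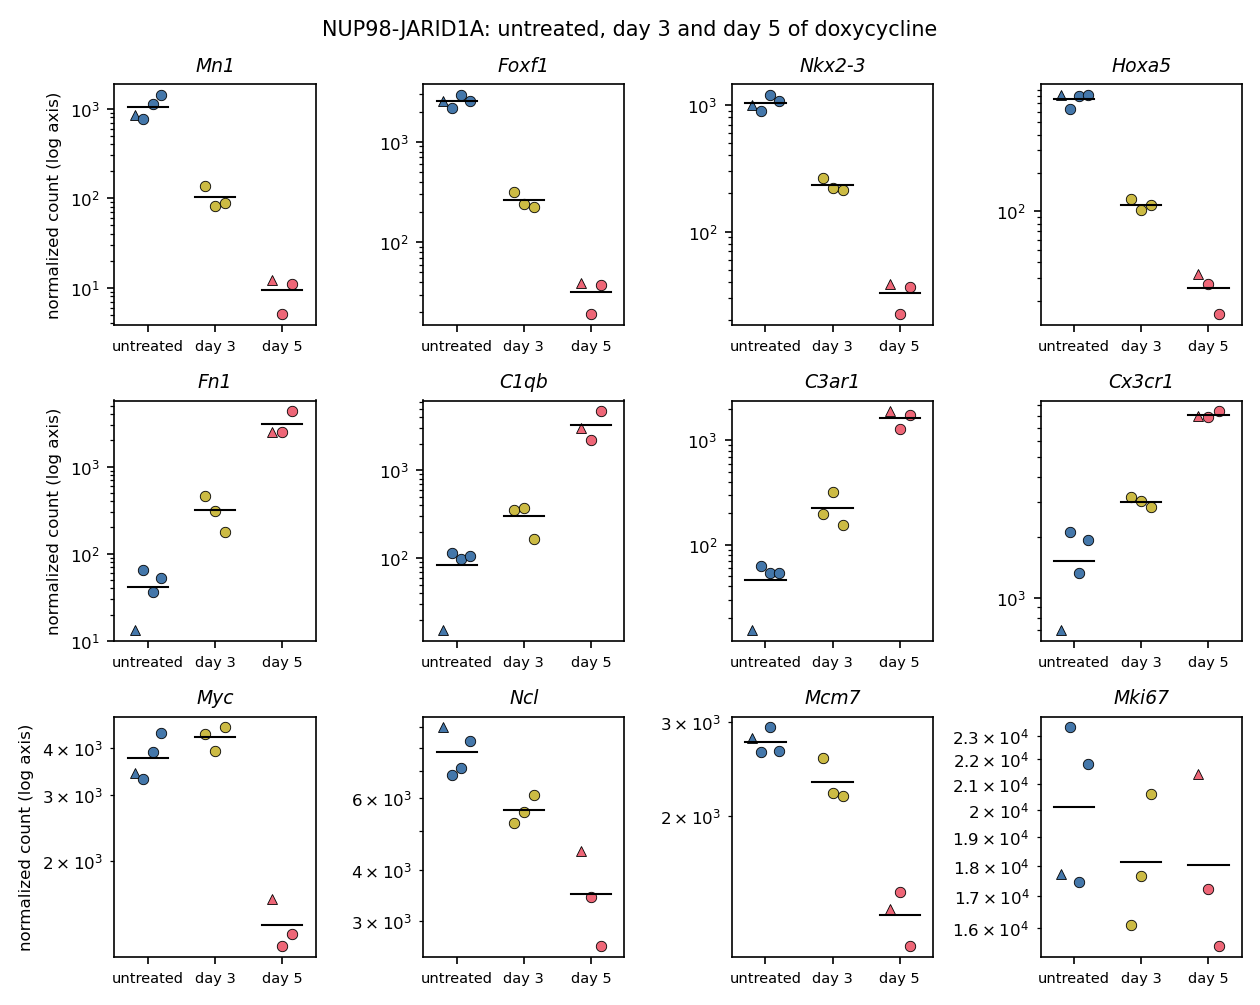
Normalized counts (log axis) of 12 genes in untreated, day 3 and day 5 libraries; points are libraries, bars are group means, and triangles mark the untreated library titled day 3 and day 5 replicate 1. The first row falls and the second rises in steps through day 3; Myc falls only after day 3, and Mki67 overlaps between the groups.

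Of 23 tested members of the Hox cluster and cofactor list, 12 fell and 2 rose (median log2 difference -0.96), with 1 rise without day 5 replicate 2. The falls took in the Hoxa cluster on chromosome 6. Hoxa5 fell from 809, 638, 805 and 809 to 32.2, 27.1 and 15.6 (-4.93 ± 0.64, adjusted p = 5.9e-07), and Hoxa7 from 543, 660, 744 and 693 to 65.0, 78.4 and 68.0 (-3.20 ± 0.23, adjusted p = 1.5e-11). Hoxa6 fell by 4.59 ± 0.37 and Hoxa10 by 2.56 ± 0.19 on the log2 scale. Hoxa9 and Meis1 are named here after their values were seen, with log2 differences of -3.07 ± 0.57 (adjusted p = 1e-04) and -2.27 ± 0.45 (adjusted p = 0.00018). Hoxa9 was 1375, 1348, 1710 and 1774 untreated and 176, 182 and 192 at day 5, and Meis1 was 469 to 586 untreated and 85.4 to 125 at day 5. Hoxa5 thus kept 3.27% of its untreated mean, Hoxa9 11.8% and Hoxa10 16.8%. Mira, a noncoding RNA annotated beside Hoxa7 at 52214491 to 52215288, fell by 3.51 ± 0.34 (adjusted p = 4.4e-09). The strand setting of the counting is not given in the sources used here, so reads of overlapping transcripts in the cluster cannot be assigned with certainty. In the Hoxb cluster Hoxb6 and Hoxb9 were listed at 0 in all 7 libraries, and Hoxb4, the highest of that cluster, read 37.6 to 51.6 untreated and 24.3 to 40.2 at day 5.

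Among 24 stem and progenitor transcription factors 11 fell and 2 rose (median -0.49), with 1 rise without day 5 replicate 2 or 3. Sox4, an HMG box factor, fell from 285, 228, 389 and 641 to 6.08, 4.02 and 4.46 (-5.95 ± 0.45, adjusted p = 4.8e-11). Ikzf2 (Helios), Hmga2, Bcl11a and Gata2 had log2 differences of -3.59, -3.28, -3.10 and -2.11. Myb, another factor of this list named after its values were seen, was at 6998 to 8747 untreated and 1671 to 1814 at day 5. The progenitor surface and cytokine receptor list split: 11 of 28 fell and 3 rose (median -0.33). Cd34, the stem cell antigen, went from 13034, 9016, 11267 and 10197 to 1278, 1203 and 1026, a log2 difference of -3.21 ± 0.76 (adjusted p = 0.0013). Kit, the stem cell factor receptor, went from 1700 to 2616 untreated to 241 to 295 at day 5, Flt3 from 1712 to 2897 to 280 to 328, and Angpt1, a ligand of the Tek receptor, from 366 to 707 to 2.23 to 8.04. In each of these 4 genes the highest day 5 library was far below the lowest untreated one. Csf1r, the receptor for macrophage colony-stimulating factor, moved the other way, from 7018, 13276, 10980 and 13668 to 23470, 27732 and 32349 (1.34 ± 0.17, adjusted p = 6e-07).

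The other genes among the 15 largest falls came from several families. Ephb2, a receptor kinase for ephrins, kept 3.44% of its untreated mean, Slc18a1, a vesicular monoamine transporter, 3.96%, and Fads2, a fatty acid desaturase, 5.45%. Adgrg1, an adhesion receptor of stem cells also called Gpr56, kept 6.43% (3980, 3401, 5391 and 4430 untreated; 245, 263 and 321 at day 5). Bahcc1, Tns1 and Dock9 kept 7.44%, 8.17% and 8.58%. All of them passed the test without each library in turn, but they were chosen among called genes whose groups did not overlap.

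Klrb1c, the gene of the NK1.1 antigen and the second of the 15 largest falls, and 5 other members of the T and NK cell list fell. That was 6 of 18 tested (33.3%, against 21.2% of all features). Klrb1c had 656, 811, 925 and 938 normalized counts untreated and 17.0, 5.02 and 5.57 at day 5 (-6.53 ± 0.40, adjusted p = 1.8e-12). It belongs to a family of similar genes, and how reads shared between its members were counted is not given in the sources used here. Gata3, a T cell and progenitor factor, fell from 571, 433, 642 and 375 to 4.26, 2.01 and 1.11 (-7.26 ± 0.31, adjusted p = 2.1e-15), and Il7r from 86.6 to 211 to 2.23 to 9.12. Summed over the list, normalized counts were 1606 to 1807 untreated and 79.1 to 115 at day 5, while Cd3e and Ncr1, which define T and NK cells, were listed at 0 in all 7 libraries and 12 of its 18 genes stayed below 10. None of the list rose, but 1 did without day 5 replicate 1 or untreated replicate 1. The same pattern of a few high genes in a list that was otherwise near 0 appeared for endothelial and stromal genes: Pdgfrb fell from 468 to 752 to 10.3 to 27.9 and Pecam1 from 2661 to 2903 to 531 to 632, and Kdr, Tek, Emcn and Col3a1 were listed at 0. That list summed to 4672 to 6117 untreated and 1056 to 1333 at day 5. Of 7 tested 3 fell (42.9%, against 21.2% of all features) and 1 rose (14.3%, against 20.1%). That rise was lost without day 5 replicate 2 or 3, untreated replicate 2 or the untreated library titled day 3. The part of other cells in these falls was not tested.

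Markers of the remaining cell types were low. B cell genes summed to 2451 to 3181 untreated and 2277 to 2796 at day 5, and Vpreb2 and Blk were listed at 0. Of 16 tested 4 fell (25%, against 21.2% of all features) and none rose. Basophil and mast cell genes summed to 1530 to 1972 and 1175 to 2974, with 4 of 16 falling (25%) and none rising (1 rising without untreated replicate 3). One of the 4 was the mast cell protease gene Cpa3, which went from 219 to 509 to 14.5 to 26.1. Erythroid genes summed to 708 to 1069 and 403 to 681, with the 4 globin genes Hba-a1, Hba-a2, Hbb-bs and Hbb-bt listed at 0. In the erythroid list 2 of 15 tested fell (13.3%, against 21.2% of all features) and none rose. There was 1 fall without day 5 replicate 2 or 3 or the untreated library titled day 3. Megakaryocyte genes summed to 490 to 740 and 314 to 441. Of 9 tested 2 rose and 2 fell (22.2% each way, against 20.1% and 21.2% of all features). These were 1 and 1 without day 5 replicate 1, with 1 rise without day 5 replicate 3 and 1 fall without untreated replicate 2 or the untreated library titled day 3.

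Cdk6 (chromosome 5, 3341004 to 3531008), the G1 kinase in the title of the study, fell from 16734, 16737, 16050 and 16562 to 4926, 4029 and 3230 normalized counts, to 24.6% of the untreated mean. The log2 difference was -2.04 ± 0.24 (adjusted p = 9.3e-08). Day 3 libraries lay between the groups at 7965 to 10617, and the direct step from day 3 to day 5 was -1.19 (adjusted p = 0.0014). In the list of G1 cyclins, kinases and inhibitors 7 of 23 fell (30.4%, against 21.2% of all features). In the same list 5 rose (21.7%, against 20.1%), and the median was -0.13. Cdk4, the sister kinase, fell from 5647 to 6802 to 2848 to 3342 (-1.07 ± 0.07, adjusted p = 7.5e-12). The inhibitor Cdkn1a (p21) rose from 707 to 1239 to 1395 to 2551, and Cdkn2d rose by 0.83 ± 0.11, while the inhibitor Cdkn2c (p18) fell from 1354 to 1538 to 488 to 641.

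DNA replication genes fell together. Of 42 tested, 38 fell and none rose, against 21.2% and 20.1% of all features, and their median log2 difference was -0.84. In 32 of the 42 every day 5 library was below every untreated one, against 18.4% of all features. Mcm7, a subunit of the replicative helicase, read 2798, 2635, 2933 and 2648 untreated and 1331, 1435 and 1133 at day 5 (-1.09 ± 0.09, adjusted p = 1.7e-10). Mcm5 fell by 0.96 and Mcm3 by 0.88, Pole, the catalytic subunit of the leading-strand polymerase, by 1.13, and Lig1, the ligase that joins Okazaki fragments, by 0.98 on the log2 scale. Each of the 42 was lower at day 5 than untreated by some amount, in a range from -1.15 to -0.03. At day 3 the median of the list had been -0.12, and 36 of the 42 were lower at day 5 than at day 3. Without the untreated library titled day 3 the count of falls was 36, and without day 5 replicate 1 it was 40.

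Mitosis genes did not show the same shift. Of 35 tested, 4 fell, fewer than the 21.2% of all features that fell, none rose, and the median was -0.13. Mki67, a marker of cycling cells named after its values were seen, read 17712, 23369, 17463 and 21823 untreated and 21405, 17232 and 15450 at day 5, and the groups overlapped (-0.16 ± 0.15, adjusted p = 0.41). Those that fell were Cdk1 (-0.31 ± 0.11, adjusted p = 0.022), Bub1b (-0.26 ± 0.09, adjusted p = 0.029), Top2a (-0.46 ± 0.18, adjusted p = 0.043) and Ect2 (-0.45 ± 0.15, adjusted p = 0.017). Each of these 4 lost its call when some single libraries were left out. The list had 11 falls and 1 rise without day 5 replicate 1, none without day 5 replicate 3, and 2 falls without untreated replicate 1 or 3.

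**Figure D3:**
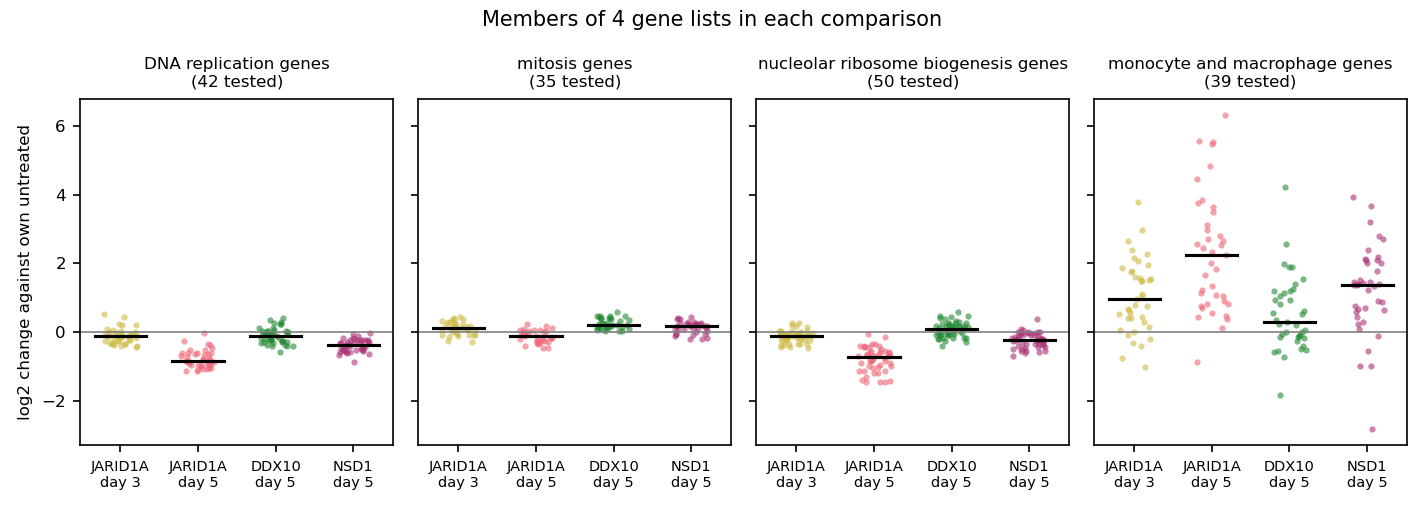
Log2 change against the untreated libraries of the same model for each tested member of 4 gene lists (points; black bars are medians) for NUP98-JARID1A at day 3 and day 5 and, at day 5, for NUP98-DDX10 and NUP98-NSD1. DNA replication and nucleolar genes sit below 0 at day 5 in NUP98-JARID1A, mitosis genes stay near 0, and monocyte and macrophage genes sit highest at day 5 in NUP98-JARID1A; the day 3 and day 5 points of this model share their untreated libraries.

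Genes of DNA replication are textbook targets of E2F factors, which the kinases CDK4 and CDK6 release from the retinoblastoma protein. The core of the E2F site, TTTCGCG or TTTGGCG on either strand, occurred in the 250 bases before the transcription start in 8 of 41 RefSeq promoters (19.5%) of the 34 genes of the list that the promoter table holds, in 635 of 32851 promoters of the whole table (1.93%) and in 431 of 12893 promoters of genes tested (3.34%). A match is a description of the letters and not a bound site. The stretches around the matches are shown for all 8 genes because they are the members of the list that carry the motif; each is in lower case with the motif in capitals, 5′ to 3′ on the gene's own strand, in GRCm38.p6. Where a match on one strand overlaps one on the other, as in Mcm5 and Mcm6, the capitals run together.
Mcm5, chr8:75109306-75109417, plus strand: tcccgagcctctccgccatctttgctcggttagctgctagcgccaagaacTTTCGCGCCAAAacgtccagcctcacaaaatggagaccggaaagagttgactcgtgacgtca
Mcm6, chr1:128359706-128359865, minus strand: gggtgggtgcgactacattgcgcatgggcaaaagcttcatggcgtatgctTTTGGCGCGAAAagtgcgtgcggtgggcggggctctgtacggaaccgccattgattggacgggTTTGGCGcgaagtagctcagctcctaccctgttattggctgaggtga
Orc1, chr4:108579378-108579453, plus strand: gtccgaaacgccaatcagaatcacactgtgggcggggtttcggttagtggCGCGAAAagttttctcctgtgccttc
Rfc3, chr5:151651209-151651268, minus strand: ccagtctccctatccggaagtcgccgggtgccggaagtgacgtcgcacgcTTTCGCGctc
Pola1, chrX:93632236-93632342, minus strand: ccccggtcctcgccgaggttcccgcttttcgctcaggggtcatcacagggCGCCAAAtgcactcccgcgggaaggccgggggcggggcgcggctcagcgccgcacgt
Dtl, chr1:191575545-191575602, minus strand: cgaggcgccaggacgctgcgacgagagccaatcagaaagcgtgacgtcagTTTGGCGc
Chaf1a, chr17:56040323-56040415, plus strand: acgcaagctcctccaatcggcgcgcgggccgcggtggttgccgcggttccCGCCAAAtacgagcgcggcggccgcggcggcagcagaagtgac
Uhrf1, chr17:56304078-56304184, plus strand: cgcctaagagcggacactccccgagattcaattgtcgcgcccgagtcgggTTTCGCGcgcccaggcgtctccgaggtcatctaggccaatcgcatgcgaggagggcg

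The 8 genes with the motif all fell, in a list where 38 of 42 fell (90.5%, against 21.2% of all features). Mcm6, another helicase subunit with 3 matches in its promoter, fell by 1.11 ± 0.13 on the log2 scale, Dtl, an adaptor of a ubiquitin ligase, by 1.08 ± 0.12, and Orc1, of the origin recognition complex, by 0.96 ± 0.19. Pola1, the catalytic subunit of DNA polymerase alpha, fell by 0.96 ± 0.20, and Chaf1a, a histone chaperone of the fork, by 0.90 ± 0.11. Uhrf1, which guides maintenance methylation, fell by 0.86 ± 0.09, and Rfc3, of the clamp loader, by 0.82 ± 0.13. With Mcm5 at -0.96, the 8 lay within the range of the list as a whole. The motif was also in 4 of 48 promoters (8.33%) of the nucleolar list described next.

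Myc and the genes of ribosome production fell as well. Myc (chromosome 15, 61985341 to 61990361), the E-box factor that drives cell growth, read 3429, 3315, 3909 and 4388 untreated, 4355, 3923 and 4539 at day 3 and 1590, 1184 and 1276 at day 5. No day 3 library was below the untreated range, and day 5 was at 35.9% of the untreated mean at day 5 (-1.48 ± 0.14, adjusted p = 1.9e-09). Mxd1, an antagonist of Myc that shares its partner Max, rose from 1375 to 1519 to 2704 to 5626 (1.48 ± 0.38, adjusted p = 0.0027). Of 50 nucleolar ribosome biogenesis genes tested, 48 fell and none rose, with a median of -0.72. The nucleolar proteins Ncl, Nolc1 and Nop56 and the small ribonucleoprotein subunit Gar1 had log2 differences of -1.18, -1.19, -1.13 and -1.39, and Tsr1, a maturation factor of the small subunit, of -1.46. Ncl read 8960, 6861, 7110 and 8307 untreated and 4458, 3442 and 2599 at day 5. At day 3 the median of the list had been -0.11, and 39 of the 50 were lower at day 5 than at day 3.

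The E-box CACGTG, the motif that Myc and Max bind, was in 2 of 48 promoters (4.17%) of the nucleolar list, 5 of 41 (12.2%) of the replication list, 1053 of 12893 (8.17%) of genes tested and 1978 of 32851 (6.02%) of the whole table. The window ends at the transcription start, and letters beyond it were not searched.

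Other lists of biosynthesis leaned the same way to different degrees. Of 35 genes in a list of mitochondrial import and of folate, serine, nucleotide and polyamine metabolism 28 fell and 1 rose (median -0.75), with no rise without day 5 replicate 1. In that list Srm, the spermidine synthase, fell from 2780 to 3632 to 1174 to 1510 (-1.31 ± 0.13), and Impdh2, of guanine nucleotide synthesis, and Phgdh, of serine synthesis, fell by 1.04 and 1.24. Of 23 cholesterol synthesis genes 15 fell and none rose (median -0.66), with 2 rises without day 5 replicate 1. Sqle, the squalene epoxidase, read 910, 718, 910 and 871 untreated and 390, 384 and 276 at day 5. These genes had not been low at day 3, when the median was 0.23, and 18 of the 23 were lower at day 5 than at day 3. Of 28 nuclear pore and export genes 19 fell and none rose (median -0.40), with Nup43, Nup85 and Nup93 at -0.90, -0.77 and -0.67. Of 58 cytosolic ribosomal protein genes 11 fell (19.0%, against 21.2% of all features) and none rose (against 20.1%), and 53 had a difference below 0 (median -0.28). The falls numbered 4 without the untreated library titled day 3, 18 without day 5 replicate 1 and 6 without day 5 replicate 3. Respiratory chain genes had 3 of 45 higher and 1 lower (median 0.04), and 1 to 7 higher and 0 to 4 lower when 1 library was left out.

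**Figure D4:**
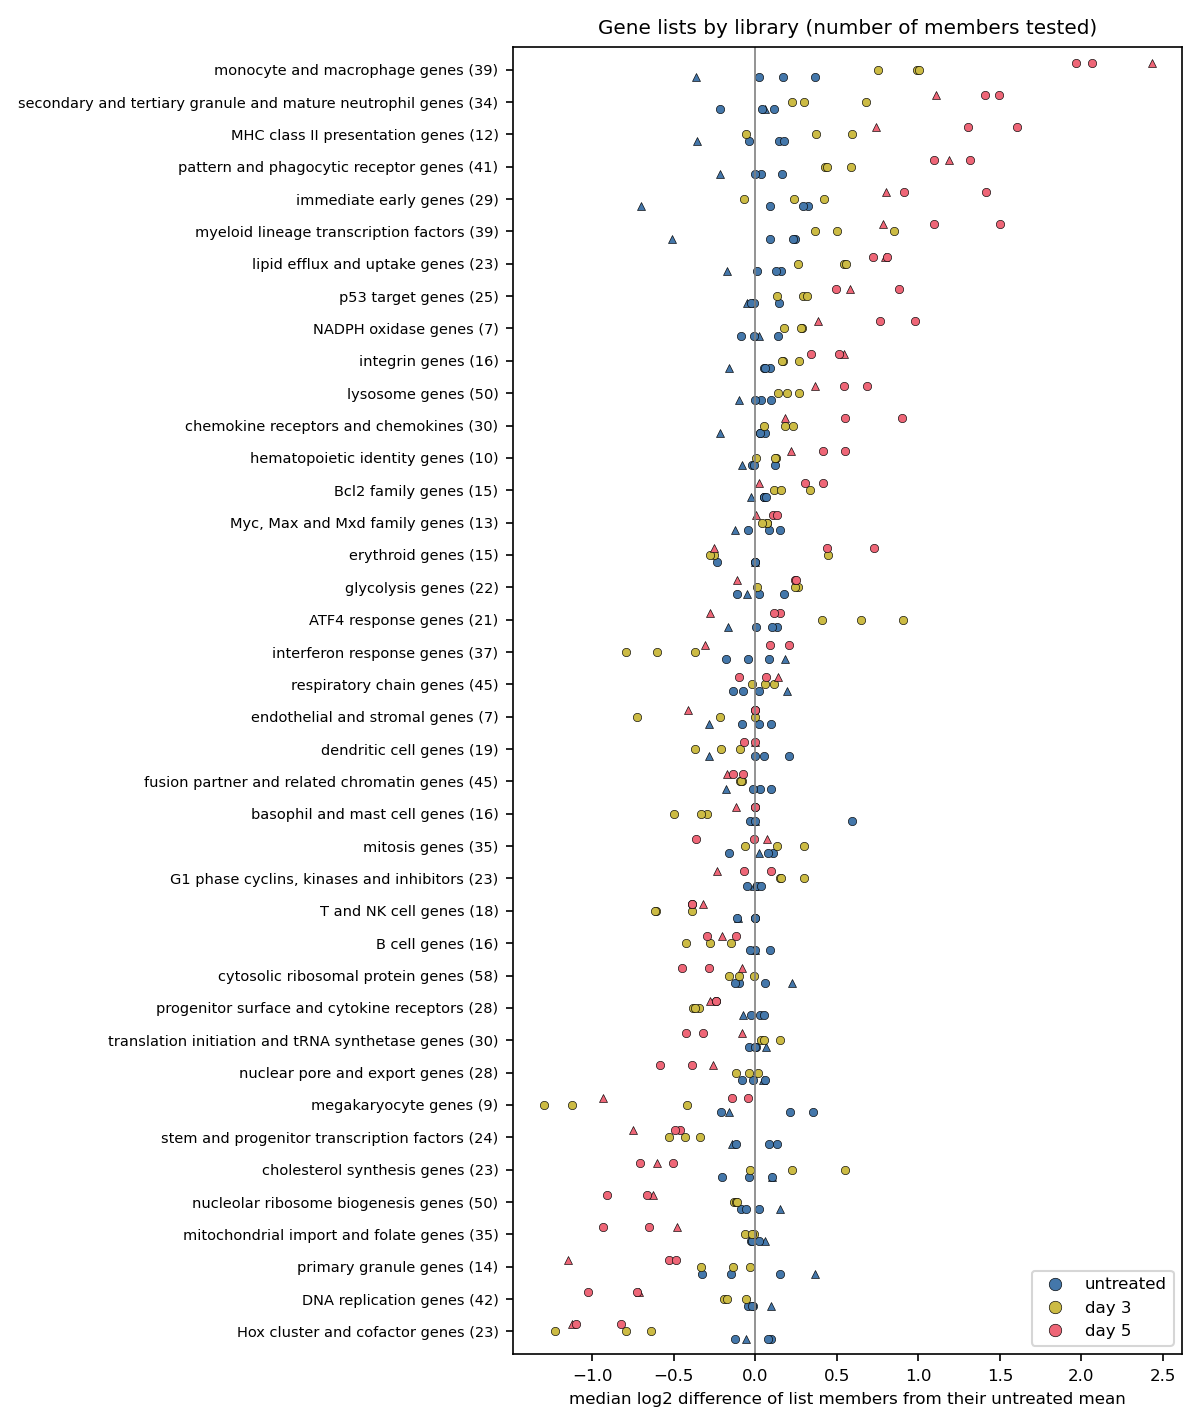
Median log2 difference of each gene list from its untreated mean, by library (points), for 40 lists with the number of members tested; colours are untreated, day 3 and day 5, and triangles mark the untreated library titled day 3 and day 5 replicate 1. The monocyte and macrophage list lies at 1.97 to 2.43 in the 3 day 5 libraries and the DNA replication list at -1.03 to -0.71.

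The largest rises were in monocyte and macrophage genes. Fn1, which encodes fibronectin, read 13.1, 64.1, 36.5 and 53.2 untreated and 2499, 2497 and 4286 at day 5, a 74.1-fold difference of means (log2 difference 6.34 ± 0.71, adjusted p = 5.8e-08). C1qb, of the first complement component, read 15.2, 116, 97.0 and 105 untreated and 3011, 2207 and 4663 at day 5 (5.56 ± 0.66, adjusted p = 1.5e-07). C3ar1, the receptor of the complement fragment C3a, read 15.2, 62.3, 53.2 and 54.2 untreated and 1892, 1277 and 1751 at day 5 (5.27 ± 0.40, adjusted p = 4.9e-11). In each, the untreated library titled day 3 was the lowest of the 7. Every day 5 library was far above every untreated one, but these genes were chosen among those whose groups did not overlap. Without that library the log2 differences were 5.87 for Fn1, 4.88 for C1qb and 4.82 for C3ar1. It also took C1qc from 5.54 to 4.80, Cmklr1 from 5.11 to 4.40 and Siglec1 from 3.77 to 3.02.

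Of 39 monocyte and macrophage genes tested, 33 rose and 1 fell, against 20.1% and 21.2% of all features, with a median of 2.25. Cx3cr1, a chemokine receptor of patrolling monocytes, rose from 692, 2120, 1340 and 1948 to 7966, 7846 and 8405 (2.53 ± 0.26, adjusted p = 1.2e-08). Clec4a1, Tgfbi, Apoe and Msr1, the last a scavenger receptor, rose by 2.80, 2.72, 3.65 and 4.46. The count was 33 without the untreated library titled day 3 and 32 without day 5 replicate 1. Others among the 15 largest rises were the matrix proteoglycan gene Vcan (26.2-fold), the chemerin receptor gene Cmklr1 (29.0-fold), Ms4a4a (22.7-fold), the sialic acid receptor gene Siglec1 (10.7-fold) and the calcium-binding S100a4 and S100a6 (12.1-fold and 12.4-fold). C1qc, Asprv1, Zfp36l1, Myof and Pgap1 were 39.0-fold, 18.9-fold, 17.6-fold, 13.9-fold and 12.5-fold higher. Of 41 pattern and phagocytic receptor genes 33 rose and 1 fell (median 1.19). Chemokine ligands and receptors had 11 of 30 higher and none lower, among them Ccl2, which attracts monocytes (5.05, 52.4, 19.8 and 35.8 untreated; 593, 362 and 487 at day 5), and Ccl6. The count was 7 without day 5 replicate 3, and without the untreated library titled day 3 it was 9, with 2 falling and Ccl2 at 3.78 in place of 4.40.

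Transcription factors of the myeloid lineages rose in 29 of 39 tested and fell in 1 (median 1.06). Maf, a factor of macrophages, went from 8.09, 60.5, 52.2 and 94.8 to 899, 611 and 788 (4.20 ± 0.49, adjusted p = 1.1e-07), with every day 5 library far above every untreated one. Klf4, a factor of mature monocytes, rose by 3.27. Klf4 was 46.5 in the untreated library titled day 3 and 206 to 364 in the other three, and without that library its difference was 2.61 and that of Maf 3.48. Klf6 and Bach1 rose by 1.42 and 0.78.

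Neutrophil genes rose too. Of 34 genes of the later granules and of mature neutrophils 20 rose and none fell (median 1.40). Ltf, the gene of lactoferrin, went from 13887, 24644, 17900 and 17111 to 92933, 132480 and 147740 (2.76 ± 0.57, adjusted p = 0.00029). Ngp, another granule protein, went from 33888, 52953, 50922 and 56566 to 152970, 334060 and 438580, with day 5 replicate 1 the lowest of its group and still above the untreated range. Lyz2 (lysozyme) rose by 1.48 and Cybb, the catalytic subunit of the phagocyte oxidase, by 1.54 on the log2 scale. The Lyz2 call was lost under quantile scaling. NADPH oxidase genes had 5 of 7 higher and none lower, but 2 without day 5 replicate 3. Genes of the primary granules, which promyelocytes fill before the other granules, did not rise with them: 5 of 14 fell and 1 rose (median -0.75). The falls numbered 3 without day 5 replicate 1 and 9 without untreated replicate 3. Ctsg went from 9268 to 17035 to 2625 to 3687 (-1.98 ± 0.35, adjusted p = 5.2e-05), Cst7 and Plac8 fell by 1.41 and 1.34, and Mpo, the myeloperoxidase, went from 43604, 32651, 44378 and 41415 to 11628, 19345 and 17147 (-1.36 ± 0.43, adjusted p = 0.012), a call that was lost without day 5 replicate 1 (adjusted p = 0.057). The member that rose was Ctsc, the protease that activates granule enzymes, from 2566 to 4356 to 14433 to 17021.

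Lysosomal and antigen presentation genes moved partly with the monocyte genes. Of 50 lysosome genes 29 rose and none fell (median 0.52), with 1 fall without day 5 replicate 3. The cathepsins Ctsb, Ctsh and Ctss rose by 1.01, 1.46 and 2.25, and the protease Lgmn by 3.75, from 92.0, 504, 288 and 532 to 3885, 3255 and 4738. Of 23 lipid efflux and uptake genes 14 rose and 1 fell, among them Lrp1 (2.14 ± 0.23). Of 12 MHC class II genes 5 rose and 2 fell, with 1 fall without day 5 replicate 1 or untreated replicate 2. H2-Aa rose from 15.2, 42.4, 41.7 and 80.3 to 254, 677 and 553, and Cd74, the invariant chain, from 107, 573, 416 and 937 to 2004, 4725 and 5700, while H2-Ob, which restrains peptide loading in B cells, fell from 138 to 154 to 21.1 to 29.8. In H2-Aa, H2-Eb1 and Cd74 the untreated library titled day 3 and day 5 replicate 1 were each the lowest of their groups, and without the former Cd74 differed by 2.64 in place of 3.26. Dendritic cell genes had 5 of 19 higher (26.3%, against 20.1% of all features) and 6 lower (31.6%, against 21.2%).

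Cell death regulators of the Bcl2 family rose in 5 of 15 and fell in 1, with 3 rises without the untreated library titled day 3. Bcl2l11 (BIM), a killer protein of the family, went from 541, 725, 600 and 672 to 1993, 1874 and 2006 (1.63 ± 0.12, adjusted p = 2.4e-11), the survival gene Mcl1 rose by 1.09 ± 0.14, and Bcl2 fell from 526 to 699 to 232 to 379 (-1.09 ± 0.24, adjusted p = 0.00069). Of 25 p53 target genes 15 rose and 2 fell (median 0.72), with Zmat3, Fas and Trp53inp1 at 1.96, 1.76 and 1.29. There was 1 fall without day 5 replicate 1 or 3 or untreated replicate 2 or 3. Immediate early genes rose in 16 of 29 and fell in 2. Their levels in the untreated library titled day 3 were low: Fos, named after its values were seen, read 603, 2804, 4131 and 3196 untreated and 5779, 6416 and 11539 at day 5, a log2 difference of 1.79 that became 1.18 without that library. Interferon response genes had 1 of 37 higher (Ifitm3, 1.14 ± 0.29) and 1 lower (Ifit2, -0.71 ± 0.22), both shares far under the background. The Ifit2 call was lost without day 5 replicate 3, and 2 rose without day 5 replicate 1. Summed normalized counts of the interferon list were 25807 to 32334 untreated and 32833 to 49119 at day 5. They did not overlap, and neither did the sums over all genes. By library, the list's median log2 difference from the untreated mean overlapped, at -0.18 to 0.18 untreated and -0.31 to 0.20 at day 5. At day 3 its median had been -0.62, and 12 of the 37 were higher at day 5 than at day 3, with none lower. Of 45 chromatin genes related to the fusion partners 3 rose (6.67%, against 20.1% of all features) and 11 fell (24.4%, against 21.2%). There were 7 rises without day 5 replicate 1, 5 without untreated replicate 3 and 6 falls without day 5 replicate 2. Suz12 and Ezh2, of the Polycomb repressive complex, had log2 differences of -1.18 and -0.88. Ash2l, of the complexes that methylate lysine 4 of histone H3, had one of -0.40.

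The step from day 3 to day 5 was tested directly, as the difference of the means of those 2 groups, with the spread estimated over all 33 libraries. It called 1210 features higher (9.54%) and 1316 lower (10.4%) at day 5, and 786 and 1341 under quantile scaling, where the share of higher calls fell from 47.9% to 37.0%. Under the same conditions on level and overlap, the largest falls were Fads2 (log2 difference -3.49), Mn1 (-3.36), Foxf1 (-3.04), Nkx2-3 (-2.84) and Ephb2 (-2.76), and the largest rises were Fosb (3.50), C1qb (3.48), C1qc (3.39), Fn1 (3.36) and Siglec1 (3.23). Fads2 read 708 to 1496 untreated, 533 to 706 at day 3 (-0.65 against untreated) and 37.9 to 60.3 at day 5. Fosb was low at day 3 (67.8 to 244) and at 1055 to 1748 at day 5, but its untreated libraries read 97.1, 1014, 1426 and 1010 and overlapped with day 5, so it did not pass the test against untreated (1.07 ± 0.60, adjusted p = 0.16). Of the genes 2-fold lower than untreated, 403 of 907 were also lower than at day 3, against 10.4% of all features. Of those 2-fold higher, 501 of 1048 were also higher than at day 3, against 9.54%. Both comparisons use the same day 5 libraries, so these counts are not independent of how the genes were chosen.

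The same 5 days of doxycycline were given to mice with NUP98-DDX10 and NUP98-NSD1 leukemia, each with its own untreated libraries. The change in NUP98-JARID1A differed from the mean of the changes in the other two, by a test of the difference, in 1275 features that were higher (10%) and 1279 that were lower (10.1%). Genes called at day 5 that met the conditions on level and overlap were ranked by p in that test. Among them the smallest p belonged to Itgb5, Bbx, Nkx2-3, Entpd5, Foxf1, Fads2, Apobec1, Cdkn2c, Tsc22d2 and Ssbp2. Itgb5, an integrin subunit, read 339, 423, 489 and 432 untreated and 1418, 1556 and 1968 at day 5 in NUP98-JARID1A (log2 difference 1.97), against -1.18 in NUP98-DDX10 and -1.23 in NUP98-NSD1, a difference of 3.17 ± 0.18 (adjusted p = 1.3e-12). Bbx, an HMG box gene, fell from 3674 to 4126 to 860 to 1134 (-1.97), against 0.19 and 0.59, and its untreated level was 514 to 643 in NUP98-DDX10 and 435 to 579 in NUP98-NSD1. Foxf1 changed by -6.32 against 0.00 and -0.45, Nkx2-3 by -4.99 against 0.00 and 0.32, and Gata3 by -7.26 against -0.25 and -0.24. A fall of these 3 genes could not be measured in the other models, where they were not above 1.02 normalized counts in any of their untreated or day 5 libraries. Fads2 was present in them, at 198 to 218 untreated in NUP98-DDX10 and 168 to 255 in NUP98-NSD1, and changed by -4.14 against -0.12 and 0.51. For Flt3 the changes were -2.82, -0.06 and 0.43. For Hmga2 they were -3.28, -0.25 and 0.15, from untreated levels of at most 48.0 in the other models. By contrast the falls of Hoxa9, Meis1, Kit and Cdk6 did not differ by this test (adjusted p of the difference 0.28, 0.57, 0.31 and 0.11); for Cdk6 the changes were -2.04, -0.83 and -1.95, and a p above the threshold does not show that they were alike.

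**Figure D5:**
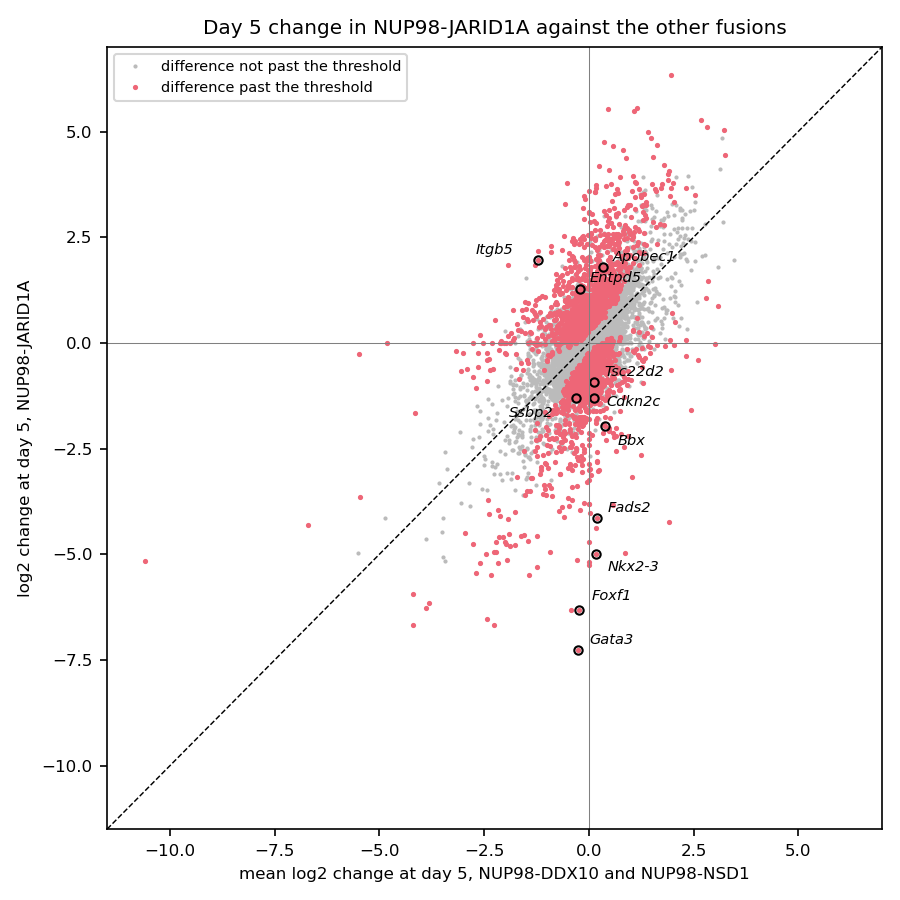
Log2 change at day 5 in NUP98-JARID1A (vertical axis) against the mean of the changes in NUP98-DDX10 and NUP98-NSD1 (horizontal axis) for the 12687 features tested. Red points passed the test of the difference, and the dashed line marks equal changes. Circles mark Gata3 and the 10 genes with the smallest p among those that met the conditions on level, overlap and the day 5 test. Foxf1, Nkx2-3, Fads2 and Gata3 lie far below the line near 0 on the horizontal axis, where Fads2 alone of the 4 was expressed in the other models, and Itgb5 lies above it.

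At the level of lists the same test set some groups apart. Counts here are of changes lower or higher than the mean change of the other models by the test of the difference. Of all features, 10.1% were lower and 10% higher. Among nucleolar genes 38 of 50 were lower and none was higher. Their median changes were -0.72 here, 0.10 under NUP98-DDX10 and -0.23 under NUP98-NSD1. For example, Ncl changed by -1.18 against 0.26 and -0.16. Among DNA replication genes 28 of 42 were lower and none higher, with medians of -0.84, -0.10 and -0.38. Among genes of mitochondrial import and of folate, serine, nucleotide and polyamine metabolism 23 of 35 were lower, and among cholesterol synthesis genes 11 of 23. Monocyte and macrophage genes were higher in 25 of 39 and lower in 1 (medians 2.25, 0.28 and 1.38), and lysosome genes were higher in 26 of 50 and lower in 1 (medians 0.52, 0.00 and 0.16). Neutrophil genes had 3 of 34 higher and none lower (medians 1.40, 0.53 and 1.37), under the 10% of all features. Without day 5 replicate 1 the test of the difference called 1785 features higher and 1969 lower, and without day 5 replicate 3 it called 849 and 846.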

How the data were processed

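The deposited table holds normalized counts (signal) per gene, which the authors made with STAR, SAMtools, featureCounts and DESeq2 on GRCm38/mm10, per the submitters' processing notes, with versions not given in the sources used here. Dividing by the lowest step in each library gave whole reads in 100% of values (within 0.01 reads), so these are counts over size factors, and the depths printed are the recovered reads. Of 24462 features, 24376 genes were matched to a symbol by Entrez number in RefSeq (GRCm38.p6). Values were tested as log2(value + 1) with limma 3.58.1 in R 4.3.3, in 1 fit of 10 group means over 33 RNA libraries with a mean-variance trend and Benjamini-Hochberg adjustment over the 12687 features that reached 10 in 3 or more libraries; calls have an adjusted p under 0.05. The 2 chromatin immunoprecipitation samples were not used. Genes named are the fusion, reporters, Cdk6 and partners, and up to 5 members per list with the smallest adjusted p. Also named are the 15 largest rises and falls with groups that do not overlap and a mean above the median of features tested (365.6). Among genes called at day 5 under those conditions, the 10 smallest p against the other fusions are named. The 5 largest steps each way from day 3 to day 5 are named too. Exceptions are marked, as are the genes chosen by their promoter motif. The members and lists were chosen with earlier results of these data known. Of the list genes, 5 were not found in the table. Same-numbered untreated and day 5 libraries had deviations correlated at 0.344, 0.14 and 0.096, so the numbers were not taken to pair them. Alternatives were edgeR 4.0.16 and DESeq2 1.42.0 on recovered reads, other pseudocounts, filters, scaling and sets of libraries. The fit was tested on simulated data. Some items of the lists and of the named genes are not reported here.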

Additional observations from a re-analysis of the deposited data

Results flagged for a closer look

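In 9 of the 154 genes and constructs examined, 1 of the 4 untreated libraries lay apart from the other three by Dixon's criterion (its gap to the nearest library, as a share of the range, was above the critical value); chance flags about 1 in 20 such groups. In 5 of the 9 the odd library was the one titled day 3: it was lowest for eGFP (9450), Tgfbi (3034) and Apoe (615) and highest for Bbx (4126) and Ash2l (1577). Replicate 1 was lowest for Hoxa5 (638) and Impdh2 (269) and highest for Fas (180), and replicate 3 was highest for Il7r (211).

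In 25 genes whose day 5 change is set against the mean of NUP98-DDX10 and NUP98-NSD1, the log2 difference of changes passed the test of the difference. The change in NUP98-JARID1A minus that mean was below 0 for Gata3 (-7.02), Foxf1 (-6.10), Nkx2-3 (-5.16), Fads2 (-4.33), Klrb1c (-4.09), Hmga2 (-3.23), Flt3 (-3.0), Bcl11a (-2.41), Bbx (-2.36), Hoxa7 (-1.83), Sqle (-1.61), Cdkn2c (-1.44), Ncl (-1.23), Tsc22d2 (-1.04), Ssbp2 (-0.99), Nolc1 (-0.96), Mcm7 (-0.72) and Myc (-0.67). It was above 0 for C1qc (5.09), Myof (3.61), Lgmn (3.58), Itgb5 (3.17), Entpd5 (1.5), Apobec1 (1.45) and Bcl2l11 (1.36). The sign of the difference does not say that the other models moved the same way: Itgb5 changed by -1.18 and -1.23 in NUP98-DDX10 and NUP98-NSD1, Entpd5 by -0.17 and -0.27, Bbx by 0.19 and 0.59, Sqle by 0.85 and -0.22, and Cdkn2c by -0.12 and 0.38. Foxf1, Nkx2-3 and Gata3 were not above 1.02 normalized counts in the untreated or day 5 libraries of the other models. Klrb1c was low there too, at 4.08 to 10.5 untreated in NUP98-DDX10 and 13.7 to 28.2 in NUP98-NSD1. At day 5 it read 1.08 to 3.0 and 0.952 to 1.97, so a larger fall could hardly be measured in them.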

How the results depend on the processing

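Against 5238 features called at day 5, leaving out 1 library at a time gave 4283 to 5753 (2110 to 2797 higher, 2173 to 2956 lower), edgeR 5232 and DESeq2 5420, and the 7 libraries alone 3660 (1758 lower). Fitting 7 or 10 libraries alone uses fewer samples. Without the control libraries 6046 were called at day 5 (2988 higher, 3058 lower). In that fit 3680 were called from day 3 to day 5, against 2526, and 3594 against the other fusions, against 2554. Without both libraries that stand apart, an alternative chosen after seeing the data, 5031 were called. The step from day 3 to day 5 gave 1721 to 3037 without 1 library (778 to 1464 higher, 943 to 1573 lower; lowest without day 3 replicate 3, highest without day 5 replicate 1), 1900 higher without the control libraries, and 786 higher and 1341 lower under quantile scaling. The test against the other fusions gave 1695 (without day 5 replicate 3) to 3754 (without day 5 replicate 1), 849 to 1785 higher and 846 to 1969 lower. A replicate block on the numbers in the titles, which the data did not show to pair the libraries, gave 3253 at day 5 (1569 higher, 1684 lower), 705 against the other fusions (377 higher, 328 lower) and 1 from day 3 to day 5 (0 higher, 1 lower). In that last fit day 3 and day 5 are linked through the untreated libraries, with 1 pair at day 3.

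Of the 154 genes and constructs examined, edgeR, DESeq2 and testing without a filter lost only Top2a, a higher filter and a larger pseudocount lost none, and fits of 7 or 10 libraries alone lost Cdk1, Bub1b, Top2a, Ect2 and Fos. The replicate block lost 12 calls: those 5 and Cd34, Mxd1, Mmp8, Mpo, Ezh2, Ifitm3 and Ifit2. Quantile scaling lost Lyz2 and called Nup98 and Mki67. Kdm5a, log2 change at day 5, which passed no test, changed sign: it was -0.0132 under quantile scaling, -0.1188 without both libraries that stand apart, and -0.1454 to 0.247 when 1 library was left out. The cause was not tested. Of 760 list medians under the alternatives, 85 moved by at least 1 SD of the day 5 libraries. Genes under about 10 normalized counts are limited by depth, and their log2 values depend on the pseudocount.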
